A study of Mus musculus with 12 samples.

Results

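The gamma and delta T cell receptor genes are the gene segments from which the 2 chains of the gamma-delta receptor are built. They were taken as every gene whose symbol in the files starts with Trg or Tcrg- followed by V, J or C, or with Trdv, Trdd, Trdj or Trdc, which gave 25 of the 51826 genes quantified. There were 14 gamma genes (6 V, 4 J and 4 C) and 11 delta genes (6 V, 2 D, 2 J and 1 C), with 32 transcripts in all. They were measured in polyadenylated RNA of 12 thymus libraries from mice whose strain is labelled F5. A set of 9 libraries came from T cell acute lymphoblastic leukemias (T-ALL) of mice with doxycycline-induced (tetracycline-inducible) expression of IL-7Rα, the interleukin-7 receptor's alpha chain, and 3 came from thymus of healthy control mice. The labels name no promoter for the inducible gene, give the controls no treatment, and do not say whether each library is a separate animal, so the tests see only how these libraries vary, part of which may be technical.

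A T cell carries either an alpha-beta or a gamma-delta receptor, and each chain is made by joining a V and a J segment (with a D segment between them in the delta chain) that are then spliced to a constant gene. In the mouse the delta segments lie inside the alpha locus, between the alpha V and alpha J genes, so that joining an alpha V to an alpha J segment removes the delta segments of that chromosome. The gamma locus is a separate one, and interleukin-7 receptor signaling through STAT5 is known to be needed for it to open for joining in thymocytes. Transcripts of unjoined segments and constant genes (germline transcripts) are also known in developing thymocytes, so counts on a single segment do not show that a receptor chain is made.

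Per GENCODE M21 (GRCm38, also called mm10), the gamma genes span chromosome 13 from 19178024 to 19352756, and the delta genes chromosome 14 from 53881612 to 54149294. The J segments are shown because they are the segments of these loci with the highest density over background in any tumor (Trdj1 in tumor 6 and, among gamma genes, Trgj4 in tumor 2). They are printed whole in the direction of transcription, from the GENCODE M21 transcripts, with capitals on the fixed letters of TTNGNNNNNGG, which fall in the codons of the phenylalanine, glycine or alanine, any residue and glycine that J segments share.
Trdj1: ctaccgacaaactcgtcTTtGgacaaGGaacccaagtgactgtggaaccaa
Trdj2: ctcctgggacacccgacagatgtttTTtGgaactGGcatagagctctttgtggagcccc
Trgj1: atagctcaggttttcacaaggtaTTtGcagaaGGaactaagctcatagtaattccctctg
Trgj2: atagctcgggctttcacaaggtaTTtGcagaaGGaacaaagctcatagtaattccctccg
Trgj3: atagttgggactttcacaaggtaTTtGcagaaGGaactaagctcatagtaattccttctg
Trgj4: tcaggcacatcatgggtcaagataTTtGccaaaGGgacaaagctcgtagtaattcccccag
All 6 hold this motif on the strand shown, as do 65 of the 80 T cell receptor J genes of the annotation (81.3%), and none holds it on the other strand. The D segments of the delta locus are shown because their shortness bears on their values.
Trdd1: atggcatatca
Trdd2: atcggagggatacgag
At 11 and 16 bases they hold no word of 31 bases, the default word length of kallisto, the program that made the counts. Both were listed at 0 in all 12 libraries, which says nothing of their use.

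Libraries differed in a background that also falls on genes thymocytes are not known to express, and all levels below are read against it. Olfactory and vomeronasal receptor genes, 1450 in number and called silent genes here, held a pooled density of 8.62 to 29.3 estimated counts per kilobase of transcript in tumors 1 to 6, between 60.2 and 90.2 in tumors 7 to 9, and between 73.9 and 85.7 in the controls. A gene was taken to be above background in a library where it had at least 10 estimated counts and at least 5 times the count expected from its length at that pooled density. The density is pulled up by a few genes, and its median over the silent genes was at most 3.61 counts per kilobase in tumors 1 to 6, between 12.1 and 21.4 in tumors 7 to 9 and between 17.1 and 19.7 in the controls. It also differed by chromosome. The 45 silent genes of chromosome 13, which holds the gamma genes, lay at 0.166 to 0.331 times the pooled density over all libraries. The 42 of chromosome 14, which holds the delta genes, lay at 0.705 to 0.994 times. Library totals were 11617724 to 34769946 estimated counts in tumors and 8133152 to 12019924 in controls. The 7 T cell markers (Cd3d, Cd3e, Cd3g, Thy1, Lck, Cd2 and Cd5) summed to 900 to 1240 CPM (counts for each 1000000, TMM-scaled, where TMM is the trimmed mean of M-values) in tumors 1 to 6, to between 37.1 and 82.6 CPM in tumors 7 to 9 and to between 23.4 and 58.4 CPM in the controls. The libraries labelled as healthy thymus thus held low levels of thymocyte markers, and the level of gamma-delta transcripts in normal thymocytes cannot be read from them.

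Of the 25 genes, 5 were above background in at least 1 tumor, all of them of the delta locus, and none was above it in any control. They were Trdc in tumors 1, 2, 5 and 6, Trdj1 in tumors 1, 5 and 6, Trdj2 in tumors 5 and 6, and both Trdv2-1 and Trdv2-2 in tumor 6. Of the 14 gamma genes none passed, but Trgj4 did in tumors 2 and 5 with a minimum of 5 counts, and Trgv2 in tumor 4 and Tcrg-C4 in tumors 2 and 4 did against the median silent density. The pooled density set a higher bar for gamma than for delta genes, relative to silent genes of their own chromosome. The other 20 genes, gamma genes included, held 0 to 37 estimated counts in every library.

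**Figure D1:**
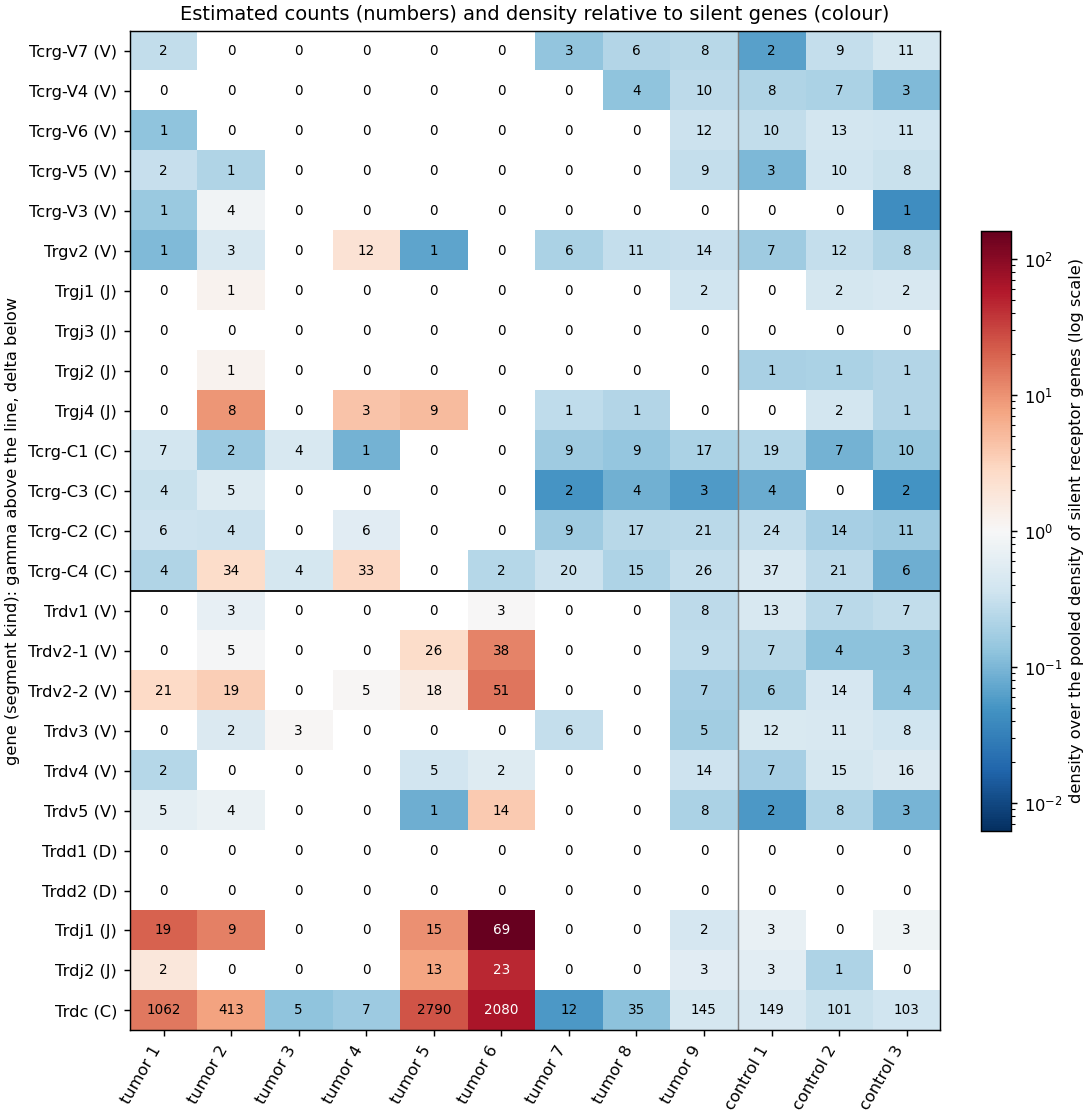
Estimated counts of the 25 genes (numbers in the cells) in tumors 1 to 9 and controls 1 to 3, coloured by density over the pooled density of silent genes in the same library on a log scale, with white at the same density and blank cells at 0 counts. The delta genes Trdc, Trdj1, Trdj2, Trdv2-1 and Trdv2-2 stand out in tumors 1, 2, 5 and 6, and every gene with counts is below the pooled silent density in all 3 controls.

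Trdc (ENSMUSG00000104876.1, chromosome 14, 54142851 to 54148868, plus strand) is the single constant gene of the delta chain, and 8.19% of its 31-base words occur in another transcript. In tumors 1 to 9 it held 1062, 413, 4.96, 7.31, 2790, 2080, 12.5, 35.4 and 145 estimated counts, against 149, 101 and 103 in controls 1 to 3. Relative to the pooled silent density this was 14.5, 7.77, 0.132, 0.161, 24.6, 62.4, 0.0537, 0.125 and 0.416 times in tumors 1 to 9, against 0.448, 0.320 and 0.362 times in the controls. Tumors 1, 2, 5 and 6 were high, the other 5 were not, and the tumors as a whole overlapped with the controls. In these 4 tumors Trdc lay above 98.5% to 100% of the 945 silent genes of at least 2000 bases, and in the controls above 56.7% to 64.7% of them.

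On the CPM scale Trdc was at 114, 53.7, 0.616, 0.954, 111, 133, 0.694, 1.48 and 4.86 in tumors 1 to 9, and at 4.94, 3.68 and 4.17 in the controls. The means were 46.7 ± 57.3 CPM in tumors (SD, n = 9) and 4.26 ± 0.637 CPM in controls (SD, n = 3). A set of 4 tumors lay above the highest control and another 4 below the lowest. The difference was smaller than the spread among tumors: edgeR's quasi-likelihood test over 40521 genes gave a log2 fold change of 3.45 (SE 1.68, Benjamini-Hochberg adjusted p = 0.296). Scaled by library totals in place of TMM factors, the log2 fold change was 1.3 (edgeR adjusted p = 0.427), with the median of all genes at -1.83. The fold change turned slightly negative, at -0.16, with limma on log2(TPM + 1), where the median of all genes was -1.15, against -0.45 in edgeR. A two-sided exact permutation of log2(CPM + 1) over all 220 assignments of the libraries gave a difference of 1.25 and p = 0.482 (0.767 adjusted over the 5 constant genes). In this bulk RNA fewer cells with a transcript and less transcript per cell cannot be told apart.

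**Figure D2:**
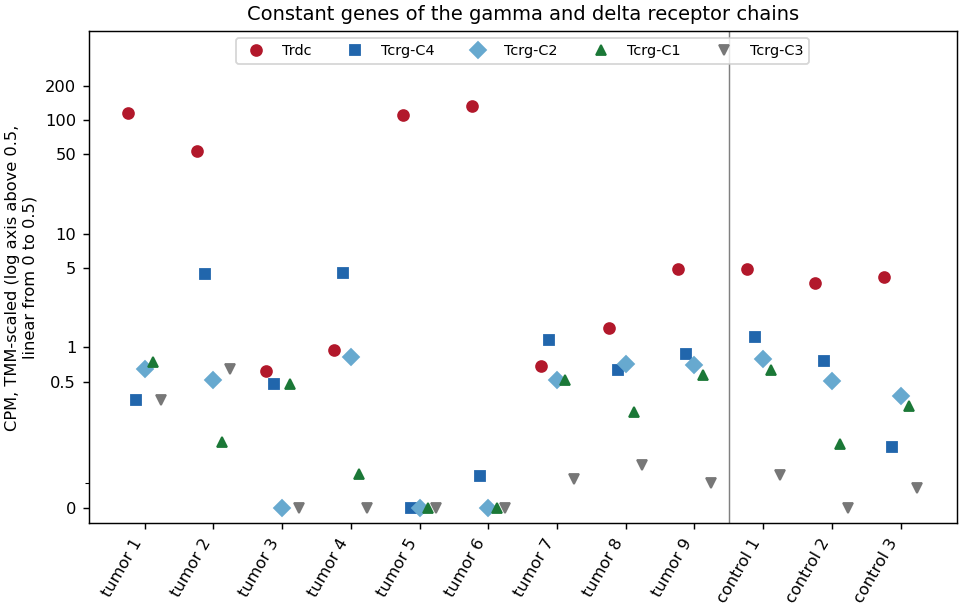
TMM-scaled CPM of the 5 constant genes in tumors 1 to 9 and controls 1 to 3 (1 point per library, log axis above 0.5 CPM and linear below). Trdc is at 53.7 CPM or more in tumors 1, 2, 5 and 6 and at 4.94 CPM or less elsewhere, and none of the 4 gamma constant genes exceeds 4.50 CPM.

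Among tumors 1 to 6, high Trdc did not follow the order of Il7r. Il7r, the induced gene, was at 72.9, 308, 511, 78.0, 97.6, 33.3, 5.03, 5.50 and 5.63 CPM in tumors 1 to 9, and at 2.52, 3.20 and 3.03 CPM in the controls. Tumor 3 had the highest Il7r and the lowest Trdc CPM. Tumor 6 had the highest Trdc with the lowest Il7r among tumors 1 to 6. Tumors 7 to 9, the lowest in Il7r, were also low in Trdc, at 0.694 to 4.86 CPM. A link between Trdc and Il7r was not tested.

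Compared per kilobase within a library, Trdc stayed below the constant genes of the alpha and beta chains, Trac and Trbc2, in all 12 libraries. It amounted to 27.5%, 22.1%, 30.3% and 15.7% of Trac in tumors 1, 2, 5 and 6 and to 0.0900% and 0.180% in tumors 3 and 4. It was 1.83%, 1.97% and 10.6% of Trac in tumors 7, 8 and 9, against 7.76%, 5.43% and 5.81% in the controls. Trac and Trbc2 lay at 35.1 to 398 and 205 to 1023 times the pooled silent density in tumors 1 to 6. Their presence thus went with Trdc in 4 of these 6 tumors and without it in tumors 3 and 4. Whether the Trac and Trbc2 RNA came from genes joined at their own loci was not tested.

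The delta J segments had counts in the same tumors. Trdj1, whose joined transcripts are spliced to Trdc, held 19, 9, 0, 0, 15, 69, 0, 0 and 2 estimated counts in tumors 1 to 9, against 3, 0 and 3 in the controls. Trdj2 held 2, 0, 0, 0, 13, 23, 0, 0 and 3 in tumors 1 to 9, against 3, 1 and 0 in the controls. Tumor 6 was highest for both, and the groups overlapped. At 51 and 59 bases they are shorter than the 75-base reads, so their ratios to a density per kilobase are rough. Neither passed the filter on low counts of the edgeR fit. Without that filter the log2 fold changes were 3.48 (SE 1.83, edgeR adjusted p = 0.385) for Trdj1 and 2.32 (SE 1.58, edgeR adjusted p = 0.557) for Trdj2.

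Trdv2-1 and Trdv2-2 are near-identical delta V genes, 93.3% identical over 343 aligned bases. Their 3′ ends are shown because the V segment's end is what joins to D and J, with capitals on the 4 bases that differ over the last 90 (plus strand, GENCODE M21 genes at chromosome 14, 53946073 to 53946660 and 53960944 to 53961602).
Trdv2-1: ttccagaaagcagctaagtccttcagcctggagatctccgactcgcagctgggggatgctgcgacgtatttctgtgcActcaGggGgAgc
Trdv2-2: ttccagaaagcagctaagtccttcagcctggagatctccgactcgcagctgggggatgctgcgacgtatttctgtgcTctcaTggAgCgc
Trdv2-1 held 0, 4.52, 0, 0, 26.4, 37.7, 0, 0 and 8.63 estimated counts in tumors 1 to 9, against 7.22, 3.56 and 3.26 in the controls. Trdv2-2 held 20.7, 19.1, 0, 5, 17.7, 51.2, 0, 0 and 6.59 in tumors 1 to 9, against 5.78, 13.8 and 3.87 in the controls. Both were highest in tumor 6, while tumor 1 had counts on Trdv2-2 alone. Of their 31-base words 73.6% and 60.2% also occur in other transcripts, mostly in each other and in the antisense gene Gm43647, so the division of counts between them is uncertain. Their log2 fold changes were 1.55 (SE 1.51, edgeR adjusted p = 0.634) and 1.84 (SE 1.43, edgeR adjusted p = 0.594).

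The other 4 delta V genes did not reach 5 times the pooled silent density in any library. Trdv5 in tumor 6 stood highest, at 3.82 times. Trdv1, Trdv4, Trdv5 and the pseudogene Trdv3 held 0 to 14.4 counts in tumors and 2 to 16 in controls. Trdv5 lies on the opposite strand past Trdc and shares 207 exon bases with it. Its 14.4 counts in tumor 6, the library with the highest Trdc, cannot be assigned to a strand here, because the labels do not say that the libraries keep it.

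Antisense genes of the delta locus had counts in the same tumors as Trdc. Gm43434, which overlaps Trdc by 96 exon bases on the opposite strand, held 71, 33, 0, 0, 362, 265, 0, 0 and 11 estimated counts in tumors 1 to 9, against 15, 10 and 9 in the controls. Relative to the pooled silent density it was 5.53, 3.55, 18.3 and 45.5 times in tumors 1, 2, 5 and 6, against 0.180 to 0.259 times in the controls. Gm43647 over the Trdv2 genes held 14.3, 10.4, 65.9 and 46.0 counts in those 4 tumors, 0 to 6.78 in the other 5, and 2.87 to 5.00 in the controls. Transcripts of either strand can count for both genes of such a pair, and which strand was read was not tested.

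**Figure D3:**
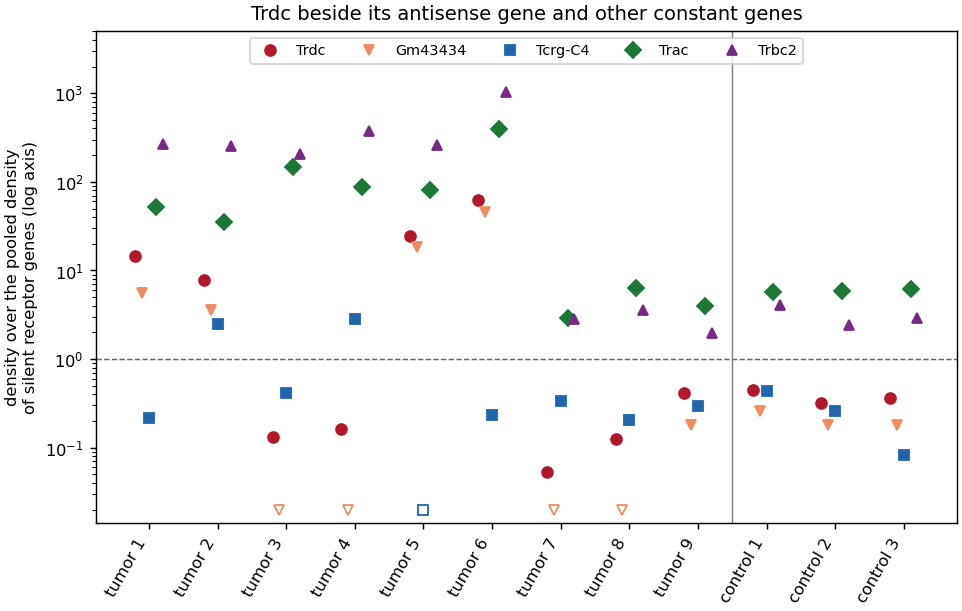
Density of Trdc, its antisense gene Gm43434, Tcrg-C4, Trac and Trbc2 over the pooled density of silent genes (dashed line at 1, log axis) in tumors 1 to 9 and controls 1 to 3, with genes at 0 counts as open symbols at the foot. Trdc and Gm43434 lie above the line in tumors 1, 2, 5 and 6 and below it, or at 0, in the other 5 tumors and the 3 controls, while Trac and Trbc2 lie above it in all 12 libraries.

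Along the locus, tumors 7 and 8 lacked counts over the stretch in which the controls and tumor 9 had them at a low level. Silent-gene densities were 60.2, 73.3 and 90.2 counts per kilobase in tumors 7, 8 and 9, against 73.9 to 85.7 in the controls. The low level itself can thus be compared roughly among these 6 libraries, with tumor 7 the lowest in background. Over the 15 V, D and J genes that start between 320 kb before Trdc and Trdc itself (alpha V genes included), tumor 7 held 5.5 counts, tumor 8 held 0 (a count of 0 allows up to 3) and tumor 9 held 105, against 76.3, 106 and 88.5 in controls 1 to 3. Of these 15 genes 14 and 15 were listed under 0.5 counts in tumors 7 and 8 and 2 in tumor 9, against 3 in each control. These numbers include Trdd1 and Trdd2, which were at 0 in every library and are too short to be informative. The only counts in tumor 7 were on the pseudogene Trdv3.

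Trdc itself was also low there: in tumors 7, 8 and 9 it lay above 0.850%, 16.0% and 63.2% of the long silent genes, against 64.7%, 56.7% and 61.3% in the controls. The 19 alpha J genes nearest to Trdc, the next segments downstream, held 0, 0 and 33 counts in tumors 7, 8 and 9, against 29, 25 and 27 in the controls. The 21 alpha J genes after these held 6, 1 and 29 counts in tumors 7, 8 and 9, against 34, 27 and 36 in the controls. The 20 alpha J genes nearest to Trac held 27, 43 and 38 counts in those tumors, against 45, 17 and 24 in the controls. Beyond Trac, the olfactory receptor gene Olfr49 held 300.0, 327 and 435 counts, against 349, 354 and 316. Trac held 165, 435 and 333 counts in tumors 7, 8 and 9, against 463, 449 and 430. The low values of tumors 7 and 8 thus took in the alpha J genes nearest to Trdc and the next 21 but not those nearest to Trac, nor Olfr49.

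On the other side of Trdc the low values reached farther in tumor 8 than in tumor 7. The 32 V genes between 650 and 320 kb before Trdc held 88.1, 9.2 and 273 counts in tumors 7, 8 and 9, against 159, 243 and 216 in the controls. The 37 V genes between 1000 and 650 kb before it held 197, 51.0 and 589 counts, against 146, 203 and 175. Tumors 3 and 4, whose silent-gene density is lower, also held few counts next to Trdc, with 3.1 and 5.0 over the 15 V, D and J genes and 0 and 5 over the 19 nearest alpha J genes. They held 553 and 312 counts on the 20 alpha J genes nearest to Trac. In tumors 1, 2, 5 and 6, where Trdc was high, the 19 nearest alpha J genes held 62, 11, 631 and 145 counts. Trdc of tumors 7 to 9 together did not differ from the controls past the threshold (log2 fold change -0.82, SE 0.517, edgeR adjusted p = 0.680), tumor 9 being at the level of the controls. These intervals along the locus were chosen after the values were seen and have no test.

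**Figure D4:**
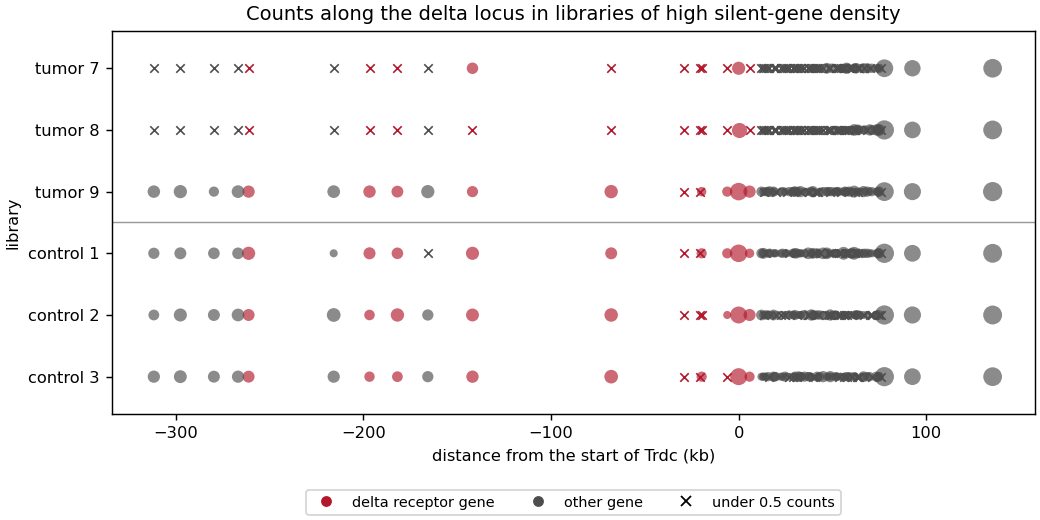
Genes of the alpha and delta loci by distance from the start of Trdc (kb) in tumors 7 to 9 and controls 1 to 3, with point area growing with the estimated count and crosses for genes under 0.5 counts. Tumors 7 and 8 show crosses for 14 and 15 of the 15 segments before Trdc and for all 19 alpha J genes next to it, where tumor 9 and the controls show points for most genes. Trdd1 and Trdd2, among the 15, are crosses in every library.

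No gamma constant gene reached 5 times the pooled silent density in any library. Tcrg-C4 (chromosome 13, 19344558 to 19352756, plus strand) was the highest of them, with 4, 34, 4, 33, 0, 2, 20, 15 and 26 estimated counts in tumors 1 to 9, against 37, 21 and 6 in the controls. Tumors 2 and 4 stood at 2.51 and 2.85 times the pooled silent density, all other libraries at 0 to 0.438 times, and the groups overlapped. On the CPM scale this was 4.42 and 4.50 in tumors 2 and 4 and 0 to 1.16 in the other tumors, against 1.23, 0.764 and 0.243 in the controls. Tcrg-C4 had a log2 fold change of 0.87 (SE 1.16, edgeR adjusted p = 0.689), and its exact permutation p was 0.777. That fold change turned negative, at -1.27, when the fit was scaled by library totals in place of TMM factors, which put the median of all genes at -1.83.

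Tcrg-C1, Tcrg-C2 and Tcrg-C3, the other gamma constant genes, share most of their sequence. They were 96.2% to 97.3% identical in pairs over the aligned bases, against 71.3% to 74.6% between each of them and Tcrg-C4. Of their 31-base words 51.0%, 45.9% and 56.6% occur in another transcript, against 0 for Tcrg-C4, so kallisto's division of counts among the 3 is uncertain. Tcrg-C1 averaged 0.346 ± 0.264 CPM in tumors (SD, n = 9) and 0.430 ± 0.189 CPM in controls (SD, n = 3). Tcrg-C2 averaged 0.436 ± 0.340 CPM in tumors (SD, n = 9) and 0.583 ± 0.187 CPM in controls (SD, n = 3). Tcrg-C3 averaged 0.163 ± 0.229 CPM in tumors (SD, n = 9) and 0.0712 ± 0.0668 CPM in controls (SD, n = 3). No count of theirs exceeded 0.558 times the pooled silent density in any library. The exact permutation p was 0.577, 0.468 and 0.614 for Tcrg-C1, Tcrg-C2 and Tcrg-C3, and 0.767 for each after adjustment.

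The gamma V and J genes carried few counts. Tcrg-V4, Tcrg-V5 and Tcrg-V6, whose segments are used in waves of gamma-delta T cells during development, together held 3, 1, 0, 0, 0, 0, 0, 4 and 31 counts in tumors 1 to 9, against 21, 30 and 22.4 in the controls. Tumors 7 and 8 were below the controls here too, while tumor 9, at 0.294 times the pooled silent density, lay among the controls (0.209 to 0.314 times). Tcrg-V6 had the lowest unadjusted edgeR p of the genes tested, 0.0411, with a log2 fold change of -2.47 (SE 1.12, adjusted p = 0.244).

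Trgv2 held 12 counts in tumor 4, 2.08 times the pooled silent density, and 0 to 14 in the other tumors, against 7 to 12 in the controls. Tumor 4 was also the library of the highest ratio of Tcrg-C4 to the silent density. Gm16602, which GENCODE M21 lists as Tcrg-V1, is outside the 25 genes by its name in the files. It held 17 counts in tumor 4, 3.86 times the pooled silent density, above the ratio of Trgv2 there. In tumor 2 it held 5 counts (0.973 times) and in the other tumors 0 to 11, against 4 to 11 in the controls. Trgj4 held 8, 3 and 9 counts in tumors 2, 4 and 5 and 0 to 1 in the other tumors, against 0 to 2 in the controls. That put it at 9.55, 4.18 and 5.04 times the pooled silent density in tumors 2, 4 and 5, under the minimum of 10 counts. The remaining gamma V genes, Tcrg-V3 and Tcrg-V7, held 0 to 8 counts in tumors and 0 to 11 in controls. Trgj1, Trgj2 and Trgj3 held 0 to 2 counts in all 12 libraries.

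Over the whole comparison none of the 25 genes was called higher or lower in tumors. The filter on low counts passed 15 of them, and at an adjusted p below 0.05 edgeR called 0% of all 40521 tested genes higher and 0.00494% lower, so the count of 0 stood against a background of nearly none. At an unadjusted p below 0.05 there was 1 of the 15, Tcrg-V6, and 7298 of all genes, while DESeq2 called 0 of the 15, with no adjusted p for 14 of them, beside 4039 higher and 51 lower of all genes. The median log2 fold change was -0.42 over the 15 genes and -0.45 over all genes tested.

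Without tumors 7 to 9, whose silent-gene density is nearer to that of the controls, 1 of 11 genes tested was higher, Trdc, and 1 was lower, Tcrg-V6. Trdc had a log2 fold change of 3.83 (SE 1.36, edgeR adjusted p = 0.0394) and Tcrg-V6 one of -4.50 (SE 0.972, edgeR adjusted p = 0.00288). Over all settings tried the adjusted p ran between 1.83e-04 and 1.00 for Trdc and between 0.00288 and 1.00 for Tcrg-V6. In that fit 19.6% of all 38567 genes tested were called higher and 20.3% lower, and 703 of 1423 silent genes tested were among those called lower. The fall of Tcrg-V6 and the difference in background between these libraries cannot be told apart. With tumors 7 to 9 alone against the controls, 0 of 8 genes tested were called (0 at an unadjusted p below 0.05), where 0.0247% of all genes were called in each direction. With the log2 silent-gene density as a covariate Trdc had a log2 fold change of -0.74 (edgeR adjusted p = 1.00).

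Genes around the receptor were read from lists of the pathway. Of 14 alpha-beta receptor, coreceptor and recombination genes none was called in the fit of all libraries, where their median log2 fold change was 2.98, against -0.45 for all genes. Without tumors 7 to 9, 11 of the 14 rose and none fell, beside the 19.6% and 20.3% of all genes tested in that fit. Trbc2, a constant gene of the beta chain that shares reads with its near-identical copy Trbc1, lay between 170 and 413 CPM in tumors 1 to 6 and between 4.12 and 7.79 CPM in tumors 7 to 9, against 6.33 ± 1.58 CPM in controls (SD, n = 3). Dntt, the enzyme that adds bases at receptor joins, lay between 66.4 and 763 CPM in tumors 1 to 6 and between 2.41 and 7.51 CPM in tumors 7 to 9, against 3.27 ± 2.28 CPM (SD, n = 3).

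Of 18 genes that act on the gamma locus or upstream of it (interleukin-7 receptor, JAK and STAT5 parts and transcription factors), none was called over all libraries (median log2 fold change 3.78, against -0.45 for all genes), and 17 rose without tumors 7 to 9, where 19.6% of all genes did. They were all tested, and Runx3 alone did not rise there (log2 fold change -0.47, edgeR adjusted p = 0.391). Tcf7, a T lineage transcription factor, lay between 299 and 748 CPM in tumors 1 to 6 and between 3.55 and 19.7 CPM in tumors 7 to 9, against 5.46 ± 1.84 CPM in controls (SD, n = 3). Myb, a transcription factor of dividing progenitors, lay between 199 and 383 CPM in tumors 1 to 6 and between 10.1 and 19.4 CPM in tumors 7 to 9, against 8.14 ± 3.11 CPM in controls (SD, n = 3). In tumors 1 to 6 no gamma gene reached the threshold of 10 counts at 5 times the pooled silent density. Tcrg-C4 stood at 2.51 and 2.85 times that density in tumors 2 and 4, where the silent genes of chromosome 13 stood at 0.254 and 0.275 times. Against the median silent density Tcrg-C4 did pass in these tumors, so the absence of gamma genes depends on the background chosen. A link between the 18 genes and the level of gamma transcripts was not tested.

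Genes of the gamma-delta lineage were split. None of the 21 was called over all libraries (median log2 fold change 0.29, against -0.45 for all genes), and without tumors 7 to 9, 4 rose, 1 fell and 16 did not pass, beside the 19.6% and 20.3% of all genes. Among those that rose were Sox4 (log2 fold change 4.18), Cd27 (3.40) and Cd163l1 (2.18), and Il17f fell (-1.98). Sox4 and Cd27 are also expressed by other thymocytes. Sox13, a transcription factor of gamma-delta thymocytes, was at 36.6, 8.85, 4.43, 8.18, 3.03, 38.8, 1.97, 4.57 and 3.19 CPM in tumors 1 to 9, against 5.17, 3.02 and 2.55 CPM in the controls. It was high in tumors 1 and 6, which also had high Trdc, but not in tumors 2 and 5, and its log2 fold change without tumors 7 to 9 was 1.97 (edgeR adjusted p = 0.063).

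Markers of other cells that the thymus can hold were summed beside Trdc. The 5 NK cell markers summed to 6.44, 12.8, 1.72 and 0.700 CPM in tumors 1, 2, 5 and 6, and to 4.43 to 17.2 CPM in the other 5 tumors, against 8.48 to 10.6 CPM in the controls. Ncr1 and Klrd1 were at 0 in tumor 6, the tumor with the highest Trdc, and Klrb1c, Klrd1 and Nkg7 were at 0 in tumor 5. The other members had counts there, such as Ncr1 in tumor 5 at 0.918 CPM (controls 0.630 to 1.17) and Eomes in tumors 5 and 6 at 0.798 and 0.510 CPM (controls 3.24 to 6.00). In tumor 2, Klrd1, Klrb1c and Ncr1 (3.12, 3.38 and 1.56 CPM) were above the highest control (0.829, 2.84 and 1.17 CPM), while Nkg7 and Eomes lay within the control range. The 5 macrophage markers summed to 83.7, 155, 53.6 and 15.8 CPM in tumors 1, 2, 5 and 6. In the other tumors they summed to 7.98 to 67.7 CPM, against 7.24 to 9.08 CPM in the controls, with none of the 5 at 0. Lyz2 alone held 112 and 43.0 CPM in tumors 2 and 5. All 5 markers were above the highest control in tumors 1 and 2. C1qa in tumor 5 (0.439 CPM) and Adgre1 and Csf1r in tumor 6 (1.72 and 1.40 CPM) were below the lowest control (0.647, 1.96 and 2.73 CPM). The 5 B cell markers summed to 106, 25.9, 47.8 and 38.8 CPM in tumors 1, 2, 5 and 6 and to 15.6 to 280 CPM in the others, against at most 19.0 CPM in the controls. Most of that sum in tumors 1 to 6 was Ighm, and Cd79b was at 0 in tumors 3 and 5. The 5 thymic epithelium markers summed to between 3.06 and 18.2 CPM in tumors 1 to 6 and to between 24.7 and 25.7 CPM in tumors 7 to 9, against at most 25.5 CPM in the controls, and the 5 erythroid markers to 0 to 6.41 CPM in all tumors, against 3.09 to 12.1 CPM. The part of NK cell, macrophage and B cell RNA in the level of Trdc was not tested.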

How the data were processed

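Polyadenylated RNA of 12 mouse thymus libraries (9 tumors, 3 controls) was sequenced in 75-base read pairs, per the labels' protocols. The authors deposited kallisto estimated counts, lengths and effective lengths per transcript, and transcripts-per-million (TPM) values, per the file headers. Per the submitters' processing notes, kallisto and FastQC were run and the build was mm10. Tool versions and the annotation release were not given in the sources used here. A fragment that spans joined segments matches no single listed transcript, and reads shared by similar transcripts are divided among them.

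Estimated counts were summed per gene and rounded, and tumors were tested against controls with edgeR 4.0.16 (R 4.3.3; TMM factors, filterByExpr, quasi-likelihood F test, Benjamini-Hochberg over 40521 genes, threshold 0.05). TMM factors ran from 0.282 to 3.16. Constant genes were also tested by exact permutation in Python 3.11.15. Alternatives used DESeq2 1.42.0 and limma 3.58.1. Coordinates and sequences came from GENCODE M21 (GRCm38), which holds all 25 genes by identifier. Gm16602, which GENCODE M21 lists as Tcrg-V1, falls outside the rule by its name in the files. The genes named were every constant gene, every V, D or J gene above background in at least 1 library, Il7r, and examples from each list by highest mean CPM. Genes and lists were chosen with earlier results of these data known. Trgv2, Trgj4, Tcrg-V4 to Tcrg-V6, Gm16602, Gm43434, Runx3, Cd163l1, Il17f and the genes along the locus were named after their values were seen. Some single genes of the lists are not reported here.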

Additional observations from a re-analysis of the deposited data

Results flagged for a closer look

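In the 9 tumors, Il7r and the 22 genes with any counts were checked for a single library apart from the rest, with a gap to the next library, over the whole range, above Dixon's critical value of 0.493. For normally distributed values chance alone sets a library apart in about 1 group in 20, but most of these genes had few counts and many at 0, so their number was not read against that share. Tumor 6 stood apart for Trdj1 at 4.40 CPM (next 2.04), Trdj2 at 1.47 CPM (next 0.52) and Trdv2-1 at 2.42 CPM (next 1.04). Tumor 2 stood apart for Trgj4 at 1.04 CPM (next 0.41), Tcrg-V3 at 0.52 CPM (next 0.11) and Trgj2 at 0.13 CPM (next 0, on 1 count), and tumor 4 for Trgv2 at 1.64 CPM (next 0.47). Tumor 9 stood apart for Tcrg-V4 at 0.34 CPM (next 0.17), Tcrg-V6 at 0.40 CPM (next 0.11) and Trdv4 at 0.47 CPM (next 0.21). Of these 3, Tcrg-V6 and Trdv4 lay within the range of the controls, and Tcrg-V4 lay above the highest control (0.27 CPM).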

How the results depend on the processing

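No gene of the 25 was called over all libraries, and with any 1 library left out both counts were 0. Without tumors 7 to 9 there was 1 higher (Trdc) and 1 lower (Tcrg-V6). limma on log2(TPM + 1) called 12 lower and on log2(TPM + 0.1) 11, beside 37481 and 35851 of all 50257 genes. A replicate block gave 1 higher, Trdc (log2 fold change 2.75, edgeR adjusted p = 1.83e-04), beside 8369 higher and 2330 lower of all 40521 genes, but same-numbered libraries did not deviate together (correlations 0.066, 0.084 and -0.094 for numbers 1 to 3), so the numbers do not pair the samples. No constant gene passed the exact permutation test, and 2 (Tcrg-C1 and Tcrg-C2, lower) passed with library totals and with log2(TPM + 1), and 0 with any 1 library left out. The 5 genes above background became 8 with the median silent density, which added Trgv2, Tcrg-C4 and Trdv5, and 5 to 6 under the other settings (Trgj4 added with a minimum of 5 counts).

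The log2 fold change of Trdc turned to -0.16 and -0.98 with limma on log2(TPM + 1) and log2(TPM + 0.1), -0.74 with silent density as covariate and -0.82 with tumors 7 to 9 alone. That of Tcrg-C4 turned to -0.86 and -1.94 with these limma fits, -1.27 with library totals and -0.10 with the covariate. Tcrg-C1 turned to 0.34 with the covariate, 0.17 with tumors 7 to 9 alone and 0.20 with the replicate block, and Tcrg-C2 to 0.30 and 0.14 with the covariate and with tumors 7 to 9 alone. The permuted difference turned to -0.39, -0.16 and -0.85 for Trdc (library totals, log2(TPM + 1), tumors 7 to 9 alone), -0.75 and -0.86 for Tcrg-C4 and -0.09 and -0.28 for Tcrg-C3 (library totals, log2(TPM + 1)), 0.23 for Tcrg-C1 with the ratio to silent density, and 0.07 and 0.06 for Tcrg-C1 and Tcrg-C2 with tumors 7 to 9 alone, where the smallest p is 0.1. The cause was not tested. Low counts limit the gamma genes: at most 37 counts stood behind any value.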
